A study of Mus musculus with 47 samples.

Results

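The myoblast-enriched fraction of C2C12 iMyoD1 cultures after 120 h of differentiation was compared with and without induction of MyoD1, with 5 of the 47 libraries of the series. Libraries were made from polyA RNA. C2C12 cells are mouse myoblasts that grow without limit in culture, and their polyclonal derivative C2C12 iMyoD1 keeps its endogenous *Myod1* and carries Halo-tagged MyoD1 behind a doxycycline (dox)-responsive TRE3GS promoter, integrated by PiggyBac transposition. Dox at 1 µg/mL, or vehicle, was given when the cells were moved to low serum and stayed for the whole 120 h. Cultures were then loosened with dilute trypsin and passed through a 40 µm strainer, and the cells that went through, mostly mononucleated, form the myoblast-enriched fraction. The members were chosen by their labels: all libraries labelled with the fraction below 40 µm, namely 2 with dox (replicates 2 and 3) and 3 without (replicates 1, 2 and 3). Further sets at 120 h served for comparison, the 6 libraries of the myotube-enriched fraction retained by the strainer and the 6 libraries of unfractionated whole cultures. Whole cultures of the same line at 0, 24 and 48 h, and at 48 h of the lines C2C12 iCdh23 and C2C12 iMcam, labelled as carrying inducible *Cdh23* and inducible *Mcam*, were used as well, each with 3 libraries with dox and 3 without. Dox or vehicle lasted 24 h for the cultures at 0 and 24 h and 48 h for those at 48 h. Every line analysed here carries a dox-inducible transgene, so in this comparison an effect of dox itself and an effect of MyoD1 cannot be told apart.

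MyoD1 is a basic helix-loop-helix transcription factor that binds E-box sequences as a dimer with an E protein and drives myoblasts toward muscle. Differentiating myoblasts leave the cell cycle, switch on *Myog* and the sarcomere genes and fuse through the membrane proteins myomaker (*Mymk*) and myomixer (*Mymx*). Some C2C12 cells do not fuse and stay as mononucleated cells beside the myotubes, and it is these that a fine strainer lets through.

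Depth was between 20719678 and 31387658 estimated counts per library (median 24920666), and levels are given as CPM, counts scaled to a common library total with TMM factors of the 11 fraction libraries. The label of the fraction held in part: genes of the sarcomere took up 1.18% to 1.92% of the counts without dox and 1.29% to 1.39% with dox, against 2.63% to 4.41% and 1.30% to 4.72% in the myotube-enriched libraries, so RNA of muscle-type cells was present on both sides of the strainer. The myoblast markers *Pax7* (70.2 to 115 CPM), *Myf5* (13.3 to 30.7 CPM) and *Cdh15* (219 to 357 CPM) were found in all 5 libraries. Endothelium, macrophages and fat cells were looked for by 10 markers. Those of endothelium (*Pecam1*, *Cdh5*, *Kdr*), the macrophage markers *Ptprc* and *Adgre1* and the fat cell markers *Adipoq*, *Plin1* and *Fabp4* lay at or below 0.157 CPM in every one of them. *Cd68*, of macrophages but also of other cells, was at 0.707 to 1.38 CPM, and *Pparg*, a nuclear receptor of fat cells, at 4.95 to 12.4 CPM, with -0.997 on the log2 scale for dox against no dox (edgeR adjusted p = 0.0540). Several markers listed for fibroblasts, smooth muscle and neurons were present in all 5 libraries, namely *Pdgfra* (8.84 to 37.4 CPM), *Dcn* (83.5 to 260.2 CPM), *Acta2* (1811 to 2797 CPM), *Tagln* (57.6 to 133 CPM), *Stmn2* (11.4 to 48.9 CPM) and *Tubb3* (1.51 to 5.79 CPM). Of the same lists *Tcf21* and *Snap25* were at 0, *Thy1* and *Myh11* lay at or below 0.473 CPM, and *Cnn1* (0.416 to 2.39 CPM) and *Syp* (0.0919 to 1.06 CPM) were low. Since RNA was taken from bulk samples, fewer cells of a type and less RNA per cell cannot be told apart in anything that follows.

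In the myotube-enriched fraction 2 libraries went against their dox labels. *Cadm4* was at 2.60, 23.8 and 4.87 CPM in the myotube-enriched libraries labelled without dox and 24.3, 2.56 and 26.7 CPM in those labelled with dox. *Trib3* ran the other way, at 53.8, 8.56 and 113 CPM in the myotube-enriched libraries labelled without dox and 8.11, 187 and 7.76 CPM in those labelled with dox. For each of these genes the library labelled without dox, replicate 2, lay among those labelled with dox, and the library labelled with dox, replicate 2, among those labelled without. The 5 libraries of the myoblast-enriched fraction showed no such crossing. Myotube-enriched dox replicate 3 stood apart in another way, with 1.30% of its counts on sarcomere genes. This lies within the 1.18% to 1.92% of the myoblast-enriched libraries, and the other myotube-enriched libraries had 2.63% to 4.72%.

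**Figure D1:**
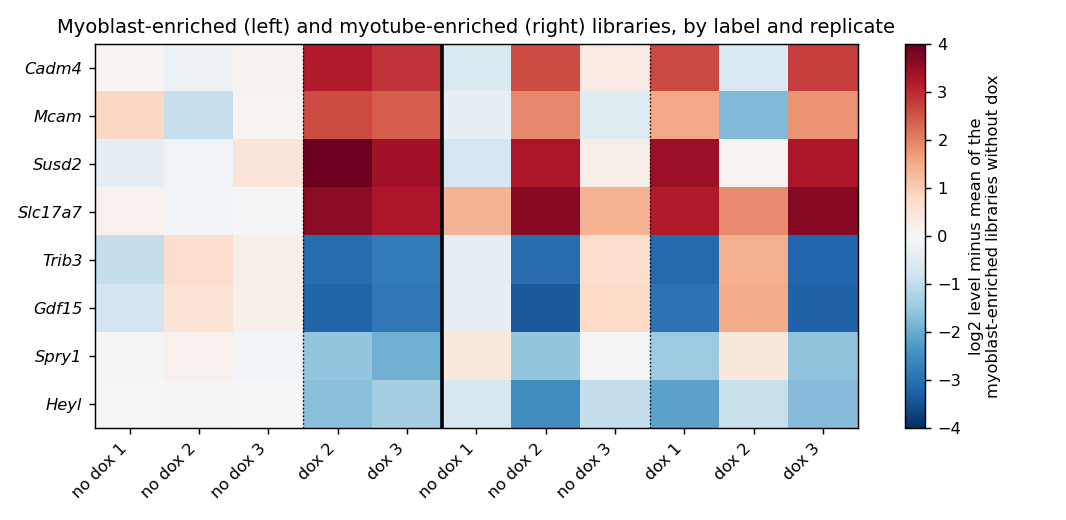
Levels of 8 genes in the 11 fraction libraries, as log2 CPM minus the mean log2 CPM of the 3 myoblast-enriched libraries without dox; red is higher and blue lower, and columns carry the label and the replicate number. On the myotube-enriched side the columns "no dox 2" and "dox 2" have the colours of the opposite label.

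The induced gene was read first. *Myod1* (ENSMUSG00000009471, GRCm38 chromosome 7 from 46376474 to 46379099) was at 294, 313 and 264 CPM without dox and 252 and 262 CPM with dox. Both dox libraries lay just below the 3 others, but the log2 fold change of -0.17 (SE 0.140, 95% interval -0.50 to 0.15) did not pass the test (edgeR adjusted p = 0.513). Whether reads of the transgene were counted under *Myod1* is not given in the sources used here, so at 120 h these counts hold no check of the dox label on the induced gene itself.

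Across 14249 genes tested, dox raised 172 (1.21%) and lowered 260 (1.82%), where a gene is called if it changed over 2-fold with an edgeR adjusted p under 0.05. Without the requirement on the fold, 260 genes rose and 359 fell. The median log2 fold change of all genes tested was -0.0063, which TMM scaling holds near 0, so all changes are relative to the bulk of the genes. The shares of 1.21% up and 1.82% down are the background for the members called in every list below. Both dox libraries lay above all 3 others for 20.8% of the genes tested and below them for 19.8%, and these shares are the background for every statement about groups that do not overlap. The calls rest on few libraries: none was left without dox replicate 2 or without untreated replicate 3, and 6 up and 8 down were left without dox replicate 3. Without dox replicate 2 or 3 the fit has 1 dox library, which is assumed to vary like the untreated ones. The log2 fold change of *Cadm4* was 2.88, 3.10 and 3.16 without dox replicate 2, untreated replicate 3 and dox replicate 3, and that of *Mcam* 2.25, 2.34 and 2.46, beside 3.03 and 2.36 with all 5 libraries. Leaving out untreated replicate 1 or 2 gave 177 and 164 genes up and 341 and 332 down.

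**Figure D2:**
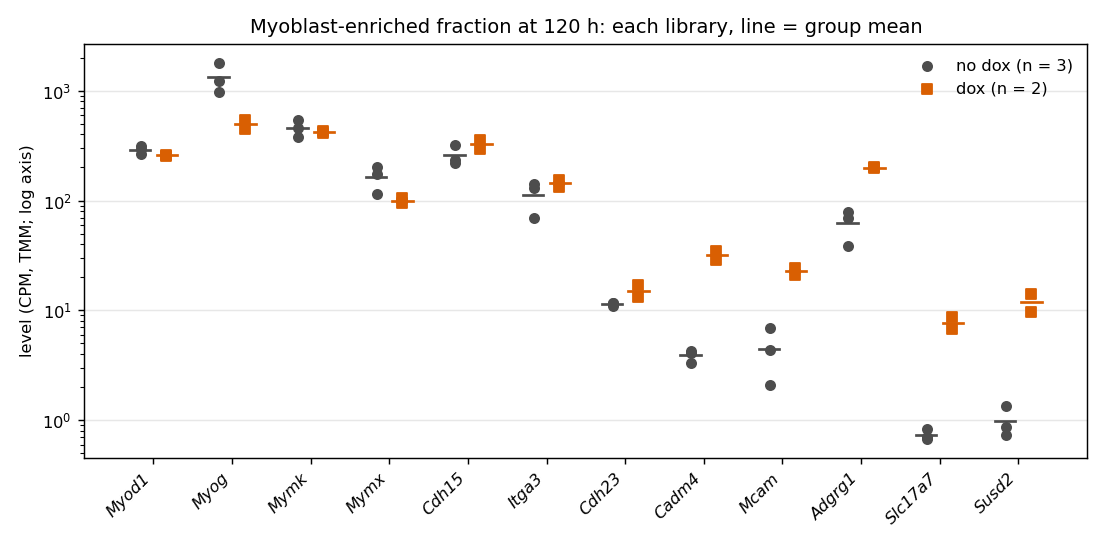
Levels of 12 genes in each library of the myoblast-enriched fraction (CPM on a log axis); circles are the 3 libraries without dox, squares the 2 with dox and lines the group means. *Cadm4*, *Mcam*, *Adgrg1*, *Slc17a7* and *Susd2* stand apart upward, *Myog* downward, and *Mymk*, *Cdh15* and *Itga3* overlap.

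Of the 5 adhesion genes that the study followed as candidates, 2 rose in the myoblast-enriched fraction. *Cadm4* (ENSMUSG00000054793, GRCm38 chromosome 7 from 24482023 to 24504539), an immunoglobulin-type cell adhesion molecule, was at 4.13, 3.33 and 4.28 CPM without dox and 35.02 and 28.7 CPM with dox. This is a log2 fold change of 3.03 (SE 0.193, edgeR adjusted p = 0.00526), or 8.16-fold. *Mcam* (ENSMUSG00000032135, GRCm38 chromosome 9 from 44134469 to 44142727), which encodes the adhesion molecule CD146, was at 6.98, 2.08 and 4.32 CPM without dox and 24.3 and 21.1 CPM with dox, a log2 fold change of 2.36 (SE 0.419, edgeR adjusted p = 0.0308), or 5.14-fold. The spread of *Mcam* without dox was wide (mean 4.46 ± 2.45 CPM, SD, n = 3), yet its highest library there was well below the lowest with dox. Salmon split *Mcam* over transcripts, and its estimates put 28.2%, 31.7% and 22.5% of the *Mcam* counts on transcript Mcam-202 without dox and 37.5% and 35.8% with dox.

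The other 3 candidates did not pass the test. *Cdh23*, an atypical cadherin of long ectodomain, was at 11.7, 11.01 and 11.6 CPM without dox and 13.2 and 16.9 CPM with dox, with a log2 fold change of 0.40 (95% interval -0.01 to 0.82, edgeR adjusted p = 0.237). *Cdh15*, the M-cadherin of myoblasts, was at 321, 232 and 219 CPM without dox and 357 and 297 CPM with dox and overlapped between the groups. *Itga3*, a laminin-binding integrin subunit, was at 139.98, 68.95 and 131 CPM without dox and 134 and 155 CPM with dox and overlapped too, with untreated replicate 2 the lowest of the 5 libraries. For *Cdh15* and *Itga3* the overlap came from untreated replicate 1 alone, a number that no dox library of the fraction carries. Their intervals, -0.12 to 0.82 for *Cdh15* and -0.32 to 1.02 for *Itga3*, reach to about 2-fold or less on the upper side.

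The promoters of the called candidates are shown because both genes moved together and MyoD1 recognises E-boxes. They are RefSeq sequences of GRCm38.p6 on the plus strand, ending 30 bases after the first annotated start, at chr7:24481773-24482052 and chr9:44134408-44134498, with each CANNTG in capitals:
*Cadm4*: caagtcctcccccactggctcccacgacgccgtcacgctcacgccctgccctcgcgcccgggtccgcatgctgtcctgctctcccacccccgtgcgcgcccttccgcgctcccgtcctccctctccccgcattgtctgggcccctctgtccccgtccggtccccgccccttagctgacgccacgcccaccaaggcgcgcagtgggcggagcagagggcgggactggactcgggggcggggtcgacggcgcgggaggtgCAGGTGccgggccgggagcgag
*Mcam*: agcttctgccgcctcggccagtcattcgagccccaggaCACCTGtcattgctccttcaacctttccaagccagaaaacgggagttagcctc
For *Mcam* that start is the GENCODE one given above, since the RefSeq start lies 189 bases further on, while for *Cadm4* both are the same base. Over the whole RefSeq window, from 250 bases before to 50 after its start, *Cadm4* has 1 such motif, 8 bases after the RefSeq start, and *Mcam* has 2, at 212 bases before the RefSeq start and, beyond the stretch shown, 2 bases after it. Neither window holds CAGCTG, the E-box variant preferred by MyoD1. Both motifs read alike on either strand, and CAGCTG is one of the forms of CANNTG.

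The same motifs were counted in windows of 250 bases before to 50 after the start. CAGCTG stood in at least 1 window of 21.5% of the genes called up with a RefSeq promoter (28 of 130 matched), 24.6% of those called down (45 of 183) and 18.2% of all genes tested (1881 of 10336). For CANNTG the shares were 71.5%, 74.3% and 67.2%. Over the 32851 promoters of the table, 16.3% held CAGCTG and 72.3% CANNTG. The genes called had more windows each (1.39 up, 1.31 down) than all genes tested (1.28), and these shares are descriptions without a test.

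The genes *Adgrg1*, *Susd2* and *Slc17a7*, which rose with dox in whole cultures at 0 h and 24 h, were followed here as well. In whole cultures at 48 h *Susd2* (log2 fold change 5.30) and *Slc17a7* (3.83) still rose, while *Adgrg1* did not (-0.03, edgeR adjusted p = 0.756). *Adgrg1* belongs to the adhesion G protein-coupled receptors (ENSMUSG00000031785, GRCm38 chromosome 8 from 94974751 to 95014217) and was at 78.5, 38.7 and 69.5 CPM without dox and 197 and 202 CPM with dox. The dox libraries differed little and lay far above the rest, a log2 fold change of 1.68 (SE 0.273, edgeR adjusted p = 0.0239). *Susd2* (ENSMUSG00000006342, GRCm38 chromosome 10 from 75636706 to 75644008), which encodes a membrane protein with a sushi domain, was at 0.735, 0.864 and 1.33 CPM without dox and 14.2 and 9.70 CPM with dox, a log2 fold change of 3.60 (SE 0.320, edgeR adjusted p = 0.00794), and headed the ranking of genes that rose. *Slc17a7* (ENSMUSG00000070570, GRCm38 chromosome 7 from 45163949 to 45176142), the vesicular glutamate transporter VGLUT1, was at 0.827, 0.672 and 0.707 CPM without dox and 8.67 and 6.83 CPM with dox, a log2 fold change of 3.40 (SE 0.265, edgeR adjusted p = 0.00704). In untreated cells both were near 1 CPM, and with dox they were still low beside *Adgrg1*.

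The ranking by fold change took genes whose mean reached 5 CPM in 1 group and whose groups did not overlap. *Susd2* and *Slc17a7* came first, and the next were mostly below 3 CPM without dox. *Cnih2*, an auxiliary subunit of AMPA-type glutamate receptors, was at 1.65, 0.672 and 0.824 CPM without dox and 10.9 and 7.75 CPM with dox. *Hap1*, the huntingtin-associated protein, was at 1.19, 0.544 and 0.785 CPM without dox and 7.47 and 6.54 CPM with dox, and *Llgl2*, a regulator of cell polarity, at 1.01, 0.512 and 0.589 CPM without dox and 6.10 and 5.44 CPM with dox. In all of these the dox libraries lay several times above the highest library without. Complement component *C3* was at 0.873, 0.192 and 1.49 CPM without dox and 5.00 and 7.51 CPM with dox and spread more. *Atp1b2*, a beta subunit of the sodium pump with an adhesive role in glia, was at 1.75, 2.11 and 5.30 CPM without dox and 16.7 and 18.2 CPM with dox. The remaining genes of the 12, beside *Cadm4* and *Mcam*, were *Sdsl* (2.80), *Sytl1* (2.63) and *Ppm1e* (2.55), where the value is the log2 fold change, with edgeR adjusted p between 0.0118 and 0.0484 for these 8 genes.

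At the head of the genes that fell was *Car12*, a membrane-bound carbonic anhydrase, at 6.39, 3.62 and 6.91 CPM without dox and 0.309 and 0.296 CPM with dox, a log2 fold change of -4.20 (SE 0.437, edgeR adjusted p = 0.0118), or 18.4-fold lower. *Tgfbi*, a secreted matrix protein induced by TGF-beta, was at 10.4, 8.80 and 7.58 CPM without dox and 0.486 and 0.858 CPM with dox, a log2 fold change of -3.68 (SE 0.331, edgeR adjusted p = 0.00794). Both were nearly silent in each dox library. *Car6*, the secreted carbonic anhydrase, was at 1.79, 9.47 and 4.55 CPM without dox and 0.221 and 0.503 CPM with dox and varied most among the untreated libraries. The G protein-coupled receptors *Gpr35* and *Gpr141* had log2 fold changes of -3.28 (SE 0.481) and -3.12 (SE 0.583), and *Cdsn*, the corneodesmosin gene, of -2.80 (SE 0.537), with edgeR adjusted p of 0.0212, 0.0347 and 0.0363. The rest of the 12 were *Aspn* and members of the ATF4 list described further on.

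**Figure D3:**
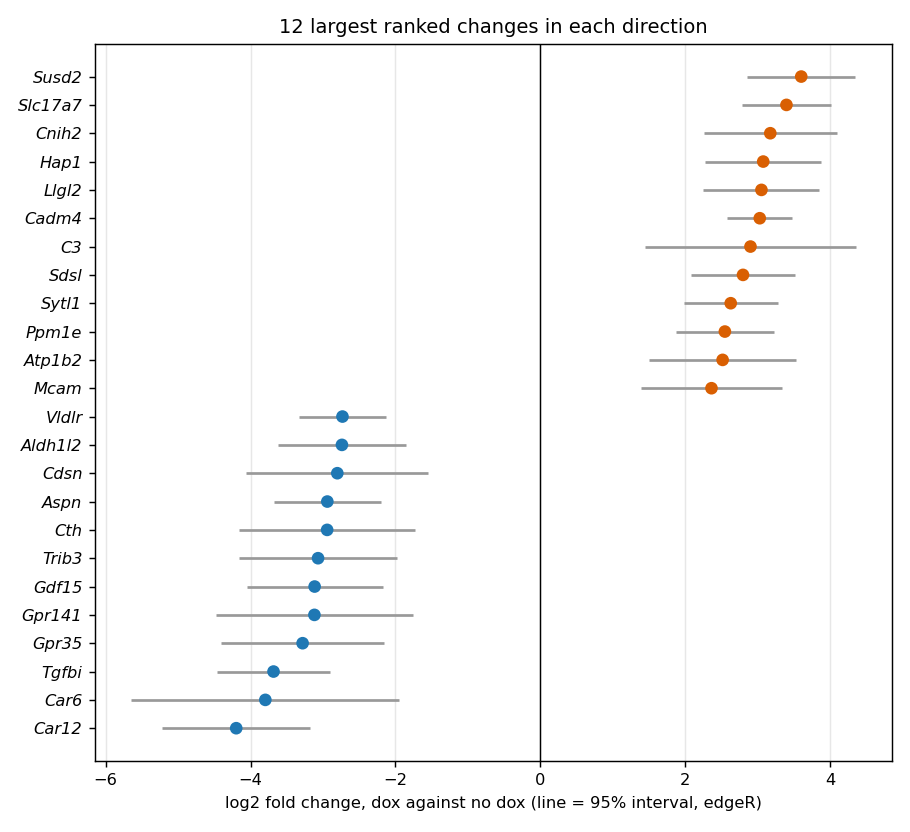
Log2 fold changes (dox against no dox, x axis) of the 12 top-ranked genes in each direction in the myoblast-enriched fraction; points are edgeR estimates and lines their 95% intervals. The rises run from 2.36 (*Mcam*) to 3.60 (*Susd2*) and the falls from -2.73 (*Vldlr*) to -4.20 (*Car12*), and the intervals of *C3* and *Car6* are the widest of their directions.

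Among 13 myogenic factors tested of 15 listed, *Myog* was the only one called. *Myog* (ENSMUSG00000026459, GRCm38 chromosome 1 from 134289989 to 134292548), the bHLH factor of terminal differentiation, was at 973, 1794 and 1234 CPM without dox and 448 and 546 CPM with dox, a log2 fold change of -1.42 (SE 0.277, edgeR adjusted p = 0.0378), or 2.68-fold lower. The groups did not overlap, although untreated replicate 2 was far above untreated replicate 1. *Myf5*, the early myogenic factor, was at 30.7, 25.1 and 29.4 CPM without dox and 13.3 and 18.8 CPM with dox and had a log2 fold change of -0.82 (adjusted p = 0.0609). *Pax7*, the factor of satellite cells, overlapped between the groups with a log2 fold change of 0.05. *Mef2a*, *Mef2c* and *Mef2d*, partners of the myogenic factors, had values of -0.51, -0.02 and -0.14. Among 9 tested genes for Id proteins, E proteins and other bHLH regulators, *Id2*, an inhibitor that sequesters E proteins, fell by 1.58 on the log2 scale, from 38.3 ± 4.55 (SD, n = 3) to 12.7 ± 4.30 CPM (SD, n = 2; edgeR adjusted p = 0.0212). *Id3*, of the same family, rose by 0.64 (adjusted p = 0.0350), which is under 2-fold.

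Fusion and contractile genes did not reach a call in the myoblast-enriched fraction. *Mymk* was at 376, 541 and 457 CPM without dox and 430.2 and 414 CPM with dox, with overlap, and *Mymx* at 115, 203 and 174 CPM without dox and 104 and 93.98 CPM with dox, with no overlap and a log2 fold change of -0.72 (adjusted p = 0.133). *Bin1* and *Itgb1*, the fusion-list genes of the highest level, had -0.27 and -0.17. None of the 20 fusion genes tested was called, and their log2 fold changes ran from -1.23 to 0.48. Of the 41 sarcomere genes tested none was called either, but 36 lay below 0 and the median was -0.50. The giant protein titin was the one member with an adjusted p under 0.05: *Ttn* was at 421, 526 and 549 CPM without dox and 261 and 266 with dox (log2 fold change -0.92, edgeR adjusted p = 0.0339). Skeletal alpha-actin, *Acta1*, was at 2175, 3370.3 and 3039 CPM without dox and 1885 and 2022 CPM with dox, and *Tpm2*, a tropomyosin, overlapped with -0.03. No gene was called in 4 further muscle lists, of which the 2 members at the highest level are named with their log2 fold changes. These were the sarcoplasmic calcium pumps *Atp2a1* (-0.65, 21.9% of exon bases shared with Rabep2) and *Atp2a2* (-0.32) among 20 genes for calcium handling and the triad (median -0.30), and the acetylcholine receptor subunits *Chrna1* (-0.12) and *Chrng* (-0.46) among 13 of the neuromuscular junction (median -0.12). Among 16 metabolic enzymes of muscle (median 0.05) they were *Ldha* (-0.53) and *Eno3* (-0.16), and among 13 genes of the dystrophin complex (median -0.23) *Dag1* (-0.06) and *Sgcb* (-0.10).

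Among the lists by function, the lowest median was that of genes driven by ATF4, the transcription factor of the integrated stress and amino acid response. Of 25 listed genes, all tested, 12 fell, none rose, all had a log2 fold change below 0, and the median was -1.43. That is 48.00% called down, against 1.82% of all genes tested. In 24 of the 25 both dox libraries lay below the 3 others, as 19.8% of all genes tested did.

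*Gdf15*, a stress-induced hormone, was at 19.3, 48.03 and 37.8 CPM without dox and 3.58 and 4.47 CPM with dox. *Trib3*, a pseudokinase that feeds back on ATF4, was at 36.3, 114 and 83.3 CPM without dox and 8.44 and 10.1 CPM with dox. Their log2 fold changes were -3.12 (SE 0.402) and -3.07 (SE 0.467). Untreated replicate 1 was the lowest of the untreated libraries and replicate 2 the highest for both. *Fgf21*, another stress hormone, was at 91.9, 176 and 153 CPM without dox and 23.9 and 26.6 CPM with dox, a log2 fold change of -2.47 (SE 0.285, edgeR adjusted p = 0.0118). Asparagine synthetase, *Asns*, was at 149, 372 and 292 CPM without dox and 75.7 and 68.8 CPM with dox, and *Chac1*, a glutathione-degrading enzyme, at 46.5, 115 and 80.7 CPM without dox and 19.2 and 16.1 CPM with dox. All 5 showed no overlap.

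Enzymes of serine and one-carbon metabolism belonged to the same group. *Aldh1l2*, a mitochondrial folate enzyme, was at 88.8, 186 and 198 CPM without dox and 19.2 and 27.97 CPM with dox (-2.74, SE 0.380), *Mthfd2* fell by 1.43 and *Psat1* by 1.17 on the log2 scale. *Cth*, which makes cysteine, had a log2 fold change of -2.94 (SE 0.521), and the amino acid transporter chains *Slc7a5* and *Slc3a2* had -1.58 and -1.53 (adjusted p = 0.0212 and 0.0477). *Vldlr*, a lipoprotein receptor gene, was at 63.9, 108 and 97.9 CPM without dox and 12.1 and 14.9 CPM with dox, a log2 fold change of -2.73 (SE 0.259, edgeR adjusted p = 0.0102). *Atf4* itself, at 436, 740.4 and 585 CPM without dox and 329 and 251 CPM with dox, was not called (-1.02, adjusted p = 0.0655), nor were *Phgdh* (-1.33, adjusted p = 0.0513) and *Ddit3* (-1.22, adjusted p = 0.109), and *Slc7a11* differed between the dox libraries (10.3 and 1.45 CPM).

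Collagens were the other group with many falls. Of 26 chains tested, 11 fell (42.3%, against 1.82% of all genes) and 2 rose (7.69%, against 1.21%), with a median log2 fold change of -0.82. *Col3a1*, the fibrillar chain with the highest level, was at 11680.1, 12162 and 12397 CPM without dox and 4164 and 4974 CPM with dox, a log2 fold change of -1.40 (SE 0.191, edgeR adjusted p = 0.0192). *Col1a1* was at 1028, 753 and 1269 CPM without dox and 369 and 365 CPM with dox and *Col1a2* at 2508, 1929 and 2864 CPM without dox and 901 and 1187 CPM with dox. In all of these both dox libraries lay below each untreated library. *Col15a1*, a chain of basement membrane zones, was at 78.97, 81.7 and 89.7 CPM without dox and 13.5 and 21.2 CPM with dox and changed most of the list (-2.26, SE 0.214). *Col18a1*, *Col14a1*, *Col8a1*, *Col12a1*, *Col11a1*, *Col5a3* and *Col5a2* fell as well, by 1.17 to 1.43 on the log2 scale. Type IV and type VI chains were not called: *Col4a1* had -0.31, *Col4a2* -0.32, *Col6a1* -0.25 and *Col6a2* -0.32. The chains that rose were low, *Col11a2* at 2.99, 1.98 and 2.67 CPM without dox and 5.44 and 7.63 CPM with dox and *Col8a2* at 7.21, 5.98 and 11.3 CPM without dox and 22.5 and 17.7 CPM with dox. Summed over the list, collagens took up 2.20% to 2.78% of the counts without dox and 1.17% to 1.48% with dox.

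Matrix glycoproteins and proteoglycans went the same way, and basement membrane genes and proteases did so less. Of 32 matrix glycoproteins and proteoglycans tested, 7 fell (21.9%, against 1.82% of all genes) and none rose (median -0.88). Asporin, *Aspn*, a small proteoglycan that binds TGF-beta, was at 123, 142 and 159.99 CPM without dox and 11.9 and 24.7 CPM with dox, a log2 fold change of -2.94 (SE 0.317, edgeR adjusted p = 0.0118). Periostin, *Postn*, was at 73.96, 155 and 103 CPM without dox and 28.6 and 18.98 CPM with dox, and versican, *Vcan*, at 600.2, 388 and 478 CPM without dox and 81.4 and 169.9 CPM with dox, with log2 fold changes of -2.22 and -1.96. *Has2*, the hyaluronan synthase, *Fmod*, *Spp1* and *Prelp* fell by 1.13 to 1.37 on the log2 scale. Fibronectin, *Fn1*, varied widely without dox (5902, 1996 and 5925 CPM) and was not called (-0.69, adjusted p = 0.421). Of 19 basement membrane genes (median -0.19, 8 above 0), the laminin chains *Lamb3* (-1.49) and *Lama4* (-1.26) fell (10.5%). Of 21 proteases and inhibitors (median -0.39, 5 above 0), 3 fell (14.3%): *Plau*, the urokinase-type plasminogen activator, at 48.1, 34.8 and 43.3 CPM without dox and 17.3 and 22.4 CPM with dox (-1.08), *Adam12* (-1.21) and the aggrecanase *Adamts5* (-1.19).

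**Figure D4:**
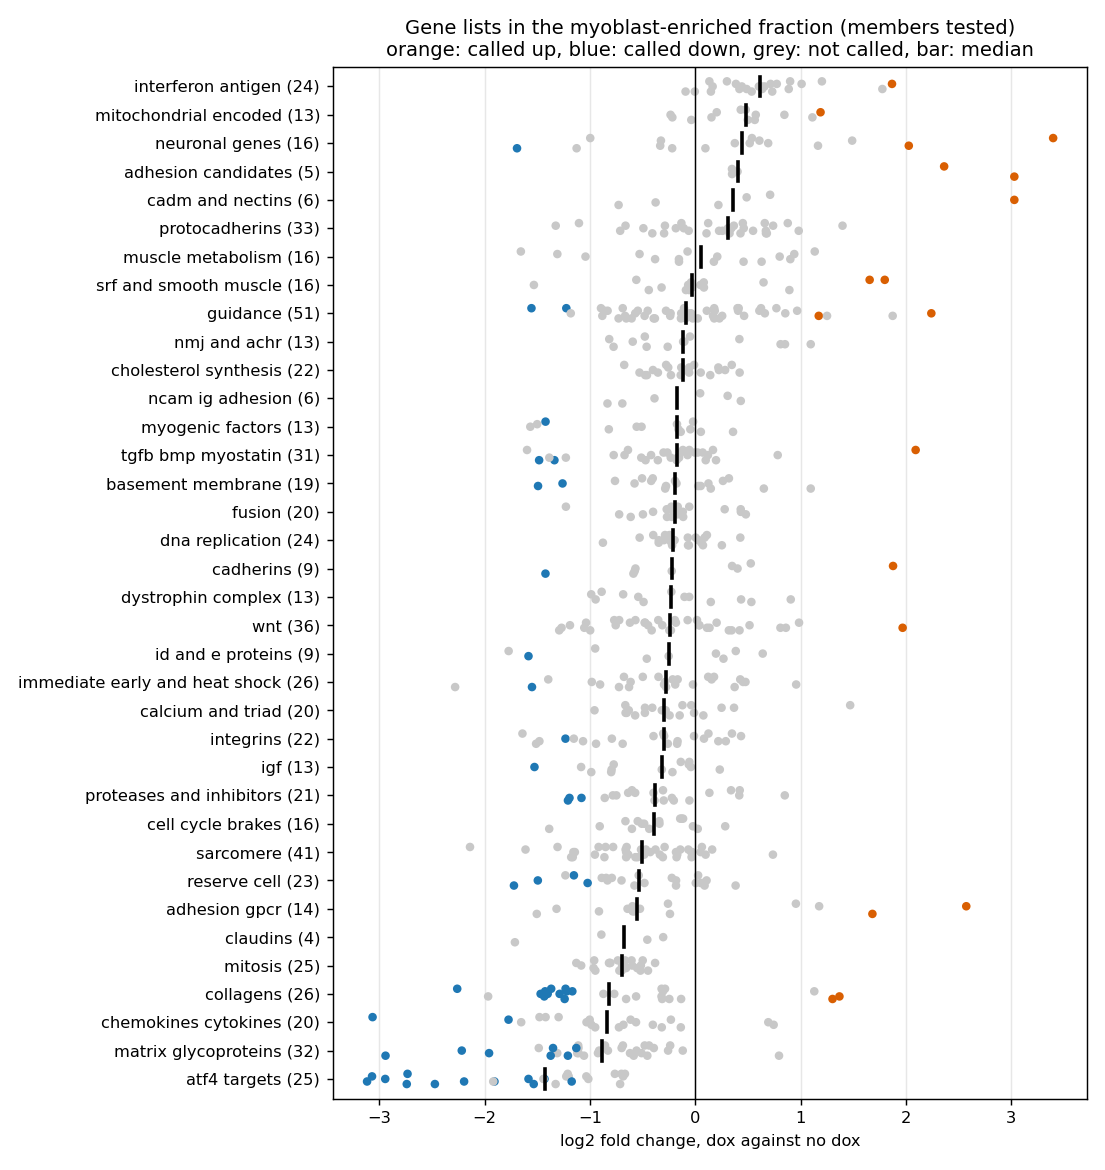
Log2 fold changes (x axis) of the tested members of 36 gene lists in the myoblast-enriched fraction, with the number tested in brackets and the lists ordered by their median (black bar); orange members were called up, blue called down and grey not called. The ATF4 list lies lowest, followed by matrix glycoproteins, chemokines and collagens, and the sarcomere list holds no coloured point.

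Quiescence and Notch genes, which mark the reserve cells that stay unfused, gave 4 falls and no rise among 23 tested (17.4% down, against 1.82% of all genes, median -0.54). *Spry1*, an inhibitor of growth factor signalling kept high in quiescent satellite cells, was at 49.6, 57.2 and 46.99 CPM without dox and 17.6 and 13.5 CPM with dox, a log2 fold change of -1.72 (SE 0.180, edgeR adjusted p = 0.0118), and 24.4% of its exon bases are shared with a gene model, Gm42922. *Heyl*, a target of Notch, was at 69.5, 73.1 and 69.5 CPM without dox and 22.1 and 27.97 CPM with dox, a log2 fold change of -1.49 (SE 0.151, edgeR adjusted p = 0.0118). The Notch ligand *Jag1* (-1.15) and the target *Hey1* (-1.02) fell too. In these 4 the untreated libraries differed little among themselves. *Vcam1* (-0.83, adjusted p = 0.0238) and *Itga7* (-0.79, adjusted p = 0.0319) passed the test below the 2-fold line, while *Pax7*, *Notch1*, *Notch2* and *Spry2* lay within 0.00 to 0.11 and *Cd34* had -0.58 (adjusted p = 0.223). The receptor *Calcr* was listed at 0 in every library.

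Proliferation genes were not called, although every mitosis gene had a value below 0. The 25 mitosis genes had log2 fold changes of -1.13 to -0.38 (median -0.69), with overlap between the groups for each. *Mki67* was at 317, 94.2 and 194 CPM without dox and 67.2 and 162 CPM with dox, and *Top2a* at 326, 117 and 245 CPM without dox and 80.5 and 206 CPM with dox. Replicate 2 was the lowest in both groups, and untreated replicate 1, the highest, has no dox library of its number. Summed over the list, mitosis genes took up 0.239%, 0.0879% and 0.181% of the counts without dox and 0.0706% and 0.147% with dox. The 24 replication genes had a median of -0.21, with *Rrm2* at -0.88 and *Pcna* at -0.22, and of 16 cell cycle inhibitors, D cyclins and related genes none was called (median -0.39), among them *Ccnd3* (-0.13) and *Cdkn1a* at 719, 1033 and 818 CPM without dox and 598 and 529.5 CPM with dox. Immediate-early and heat-shock genes, which can rise when cells are detached, took up 0.211% to 0.275% of the counts without dox and 0.209% to 0.240% with dox. Of 26 tested, *Klf4* fell, from 54.9 ± 5.30 (SD, n = 3) to 18.7 ± 1.87 CPM (SD, n = 2), -1.55 on the log2 scale (edgeR adjusted p = 0.0118).

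Few secreted signals were called, although most chemokines and cytokines had values below 0. *Gdf11*, a ligand close to myostatin, was at 18.3, 11.4 and 13.7 CPM without dox and 71.4 and 51.7 CPM with dox, a log2 fold change of 2.09 (SE 0.234, edgeR adjusted p = 0.0118). *Grem1*, a secreted antagonist of BMPs, was at 284, 197 and 186 CPM without dox and 78.6 and 80.4 CPM with dox (-1.48, SE 0.212), and *Ltbp2*, a latent TGF-beta binding protein, had -1.34. These were 1 rise and 2 falls among 31 tested. Of 36 Wnt pathway genes 1 rose, *Wnt4*, at 1.33, 0.864 and 1.57 CPM without dox and 6.06 and 3.76 CPM with dox. Of 13 insulin-like growth factor genes (median -0.32, 1 above 0) 1 fell, the binding protein *Igfbp4*, at 118, 159 and 107 CPM without dox and 48.3 and 40.6 CPM with dox. Of 20 chemokines and cytokines, RANK ligand, *Tnfsf11* (-3.06), and its decoy receptor *Tnfrsf11b* (-1.77) fell, both from low levels. Of these 20, 2 had a value above 0, the median was -0.84, and both dox libraries lay below all untreated ones for 15, against 19.8% of all genes. *Il33* (-1.65, adjusted p = 0.0797) was not called.

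Interferon and antigen presentation genes leaned upward. Of 24 tested, 22 had a log2 fold change above 0 and the median was 0.62, but 1 was called, the interferon regulatory factor *Irf7* at 1.88, 1.28 and 1.69 CPM without dox and 7.47 and 4.32 CPM with dox (1.87, adjusted p = 0.0301). *H2-K1*, a class I antigen-presenting molecule, was at 111, 111 and 114 CPM without dox and 182 and 164 CPM with dox and passed the test below 2-fold (0.63, adjusted p = 0.0397). In 18 of the 24 both dox libraries lay above the 3 others, where the share among all genes was 20.8%. Of 13 genes encoded in mitochondrial DNA 1 was called up, *mt-Nd3* at 118, 121 and 102 CPM without dox and 253 and 266 CPM with dox. The 13 together took up 3.62% to 6.69% of the counts without dox and 5.80% to 5.90% with dox, which overlap.

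Adhesion and guidance genes outside the 5 candidates gave scattered calls. Of 14 adhesion G protein-coupled receptors, *Adgrg1* and *Adgrb2* rose, the latter from 0.184, 0.128 and 0.157 CPM to 0.928 and 0.946 CPM, and the median of the family was -0.55. Of 51 guidance genes the ephrins *Efna3* (2.24) and *Efna2* (1.17) rose and the semaphorin *Sema3g* (-1.55) and the netrin *Ntn4* (-1.22) fell, and 14.1% of the exon bases of *Efna3* are shared with another gene model. Among 9 cadherins *Cdh24* rose (1.88) and *Cdh18* fell (-1.42). The collagen-binding integrin subunit *Itga11* was the 1 called of 22 integrins (-1.23), and *Cadm4* the 1 of 6 Cadm and nectin genes. None was called of 6 other immunoglobulin-type adhesion genes, with *Ncam1* at -0.39, 4 claudins, with *Cldn12* at -0.46 and *Cldn15* at -0.30, and 33 protocadherins. *Pcdhgc3* (-0.30) and *Pcdhgc4* (0.55), at the highest level of the protocadherins, share 66.9% and 37.9% of their exon bases with other genes of the cluster, so the split between them is uncertain.

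Genes of smooth muscle and neurons were looked at as signs of other programs. *Myl9*, a myosin light chain of smooth muscle, was at 39.7, 26.9 and 35.1 CPM without dox and 124 and 89.3 CPM with dox, a log2 fold change of 1.66 (SE 0.209, edgeR adjusted p = 0.0160), and the calponin *Cnn1* rose as well, to 2.39 and 1.89 CPM (1.80), while *Acta2* was not called (1811 to 2797 CPM over the 5 libraries, -0.44) and *Myh11* stayed at 0.0919 to 0.473 CPM. These are 2 rises among 16 tested. Of 16 neuronal genes tested, *Slc17a7* and the microtubule protein *Mapt* (2.03) rose and *Stmn2* fell, at 38.2, 26.97 and 48.9 CPM without dox and 11.4 and 12.1 CPM with dox, with *Snap25* at 0 in each library. Of the fibroblast markers *Pdgfra* had -1.34 (adjusted p = 0.0467), *Dcn* -0.56 and *Tcf21* was at 0. No gene of 22 for cholesterol synthesis was called (median -0.12), with *Srebf2* at -0.14 and *Hmgcs1* at -0.53. The part of shifts in cell makeup in any of these results was not tested.

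To see how genes that answer dox at other times stood in the myoblast-enriched fraction, calls in whole cultures were carried over. These whole-culture libraries are separate from those of the fraction, with the same line and dox. Of 394 genes called up at 0 h, before differentiation, 348 were tested in the fraction and 83 were called up there (23.9%), and their median was 0.87 on the log2 scale. At 24 h it was 127 of 989 tested (12.8%, median 0.51), and at 48 h 137 of 796 (17.2%, median 0.76). Each share stands against 1.21% of all genes tested. For genes called down, 21 of 146 from 0 h, 72 of 640 from 24 h and 194 of 1146 from 48 h were called down, 14.4%, 11.2% and 16.9%, against 1.82%.

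Read from the side of the fraction, 137 of the 165 genes that rose there and were tested at 48 h had also risen at 48 h (83.03%), 79.4% had risen at 24 h and 52.5% at 0 h. Of all genes tested, 5.93%, 8.02% and 2.91% rose at those times. Of the genes that fell, 78.2%, 33.3% and 9.55% had fallen at 48 h, 24 h and 0 h, where the shares among all genes were 8.46%, 5.13% and 1.36%. No gene went from a call at 48 h to the opposite call in the fraction. From 24 h, 12 genes called up were called down in the fraction and 0 the other way, and from 0 h it was 5 and 3. In whole cultures at 0, 24, 48 and 120 h the 5 adhesion candidates had median log2 fold changes of 1.29, 2.72, 1.05 and 1.19, beside 0.40 in the fraction. For the ATF4 list the values were -0.44, -0.72, -1.28 and -2.69, beside -1.43, and for the sarcomere list 0.27, 0.25, -1.26 and -0.58, beside -0.50. The sarcomere medians are not over the same members, since 17 of the list were tested at 0 h and 23 at 24 h, against 41 at 48 h, at 120 h and in the fraction.

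Lines with other inducible genes were set beside the fraction. Of the genes that rose in the fraction and were tested in C2C12 iCdh23 or C2C12 iMcam at 48 h, whose labels give inducible *Cdh23* and inducible *Mcam*, 89.3% and 83.8% rose there too, out of 1854 and 960 genes called up in those lines (13.0% and 6.99% of all genes tested there). Of the genes that fell it was 86.99% and 69.1%, beside 17.0% and 9.85% of all genes. From the lists called up, 9.91% and 15.98% of the genes tested in the fraction were called up in it, against 1.21% of all genes. The labelled targets give no clean check of the lines: *Cdh23* had a log2 fold change of 0.32 (adjusted p = 0.102) in C2C12 iCdh23 and 2.76 in C2C12 iMcam, and *Mcam* 2.97 and 2.02. Whether the transgenes are counted under these genes is not given in the sources used here. *Susd2* had log2 fold changes of 6.70 and 5.57, *Slc17a7* of 5.23 and 4.37 and *Cadm4* of 3.90 and 3.27, in the order C2C12 iCdh23 and C2C12 iMcam. The ATF4 list had medians of -2.13 and -0.54 and the collagens -2.22 and -1.16 in these lines. Neither line is labelled as carrying inducible MyoD1, and the parts of dox and of the induced proteins in these values cannot be told apart.

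At the same time point, unfractionated cultures had 997 genes called up (7.32%) and 1199 called down (8.8%) of 13628 tested. Their counts stand in another deposited table, and what sets the tables apart beyond the straining cannot be told apart from it. The difference of the dox effects was tested over both sets in 1 model of 11 libraries. In the fraction it was higher than in the whole culture for 337 genes (2.23% of 15122) and lower for 367 (2.43%). Of the 337, 292 were called down in the whole culture, and of the 367, 239 were called up in it. With 1 library left out at a time these counts ranged from 164 to 669 and from 116 to 609, both lowest without dox replicate 2 of the fraction. The first was highest without untreated replicate 3 of the whole culture, the second without untreated replicate 2 of the fraction. Of the genes that rose in the fraction, 109 of 145 tested in the whole culture rose there too (75.2%), which is 11.8% of the whole-culture calls tested in the fraction. Of those that fell it was 160 of 248 (64.5%, and 14.1% of the calls there).

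*Adgrg1* and *Mapt* rose in the fraction and were not called in the whole culture. *Adgrg1* had log2 fold changes of 1.68 and -0.04, a difference of 1.72 (SE 0.330, edgeR adjusted p = 0.0106). *Mapt* had 2.03 and -0.27, a difference of 2.30 (SE 0.449, edgeR adjusted p = 0.0113). *Grem1* (-1.48 and 0.01), *Aspn* (-2.94 and -0.92), *Gpr35* (-3.28 and -0.70) and *Ntn4* (-1.22 and -0.21) were lower in the fraction, where they fell, than in the whole culture. In the other direction the fall of ATF4 genes was deeper in the whole culture: *Gdf15* had -3.12 against -7.36 and *Trib3* -3.07 against -5.06, and 15 of the 25 differed so by the test. The differences of *Myog* (-1.42 against -2.58), *Cdkn1a* (-0.60 against -1.70), *Klf4* (-1.55 against -3.70) and *Myod1* (-0.17 against -1.62) had the same sign. For *Cadm4* (3.03 against 3.60), *Mcam* (2.36 against 4.14), *Susd2* (3.60 against 5.15) and *Slc17a7* (3.40 against 4.29) the difference did not pass (adjusted p between 0.0619 and 0.244), with estimates of -0.57, -1.78, -1.55 and -0.90.

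**Figure D5:**
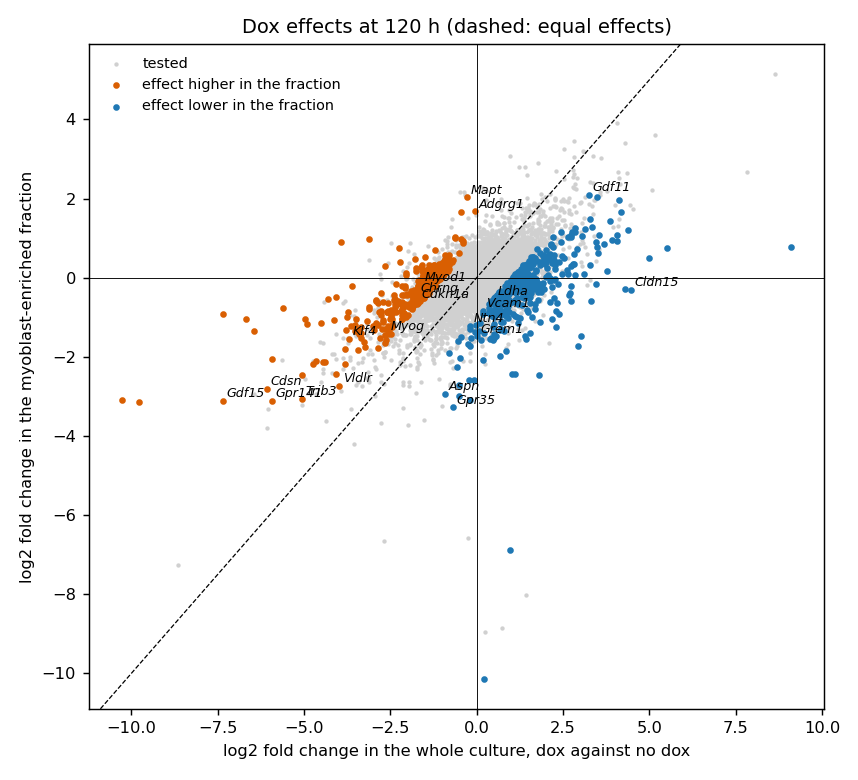
Log2 fold changes with dox at 120 h in the whole culture (x axis) and in the myoblast-enriched fraction (y axis) for 13123 genes tested in both and in their difference; colours mark a tested difference over 2-fold at an adjusted p under 0.05, and the dashed line equal effects. Most orange points lie left of 0 and most blue points right of 0, so the effects that differed were mostly larger in the whole culture, and *Adgrg1* and *Mapt* lie near 0 on the x axis and above 0 on the y axis.

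The myotube-enriched fraction gave no call in either direction among 14112 genes (edgeR), with 79 at an unadjusted p under 0.05 and 1 up and 1 down with DESeq2. Nor did the difference between the fractions give a call among 15008 genes, with 218 at an unadjusted p under 0.05 and again 1 and 1 with DESeq2. Both rest on the libraries that go against their labels. Without this pair, a restriction chosen after seeing the data, there was still no call in either comparison with edgeR, and 1277 and 392 genes were at an unadjusted p under 0.05. With all groups of the table in 1 fit and this pair left out, 1 gene, *Cyfip2*, was called for the difference between the fractions, named here after its value was seen (3.49 on the log2 scale, dox effect in the myoblast-enriched less that in the myotube-enriched fraction, edgeR adjusted p = 0.0144, 998 genes at an unadjusted p under 0.05). The same pair weighs on a fit of the myoblast-enriched comparison within all 23 libraries of its table, which called 1 gene up and none down with it (2028 at an unadjusted p under 0.05) and 250 up and 218 down without it. *Mcam* was at 3.182, 15.04 and 2.84 CPM in the myotube-enriched libraries labelled without dox and 11.7, 1.16 and 13.8 CPM in those labelled with dox, and *Aspn* at 143, 11.9 and 105 CPM in the myotube-enriched libraries labelled without dox and 13.8, 97.9 and 43.5 CPM in those labelled with dox. Apart from that call, no difference in the dox effect between the fractions was shown for a gene named here.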

How the data were processed

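PolyA RNA libraries were read as 150-base pairs on a NovaSeq. Reads were run through nf-core/rnaseq 3.18.0 with Salmon against mm10, and the authors deposited estimated counts per transcript that were not scaled to depth or length, in 3 tables of which the fractions fill 1 and the whole cultures at 48 and 120 h another. Counts were summed per gene and rounded. GENCODE M21 (GRCm38), which gave positions, matched 98.72% of 109617 transcripts. Comparisons used edgeR 4.0.16 in R 4.3.3 (filterByExpr, TMM, quasi-likelihood test, Benjamini-Hochberg adjustment over all genes tested) with condition as the only term, as in the study's DESeq2 design, and standard errors came from the F statistic. An exact two-sided permutation test of 2 libraries against 3 cannot go below p = 0.2. Only the replicate numbers tell libraries of a group apart, so p-values measure the spread between these libraries. The strand setting of the counting is not given in the sources used here. Beside those given with their values, the named genes that share over 1% of their exon bases with another gene model are *Aldh1l2* (14.1%), *Hmgcs1* (12.1%), *Ltbp2* (9.34%), *Cdkn1a* (7.68%), *Bin1* (6.22%), *Ncam1* (4.81%), *Has2* (4.30%), *Ccnd3* (4.11%), *Atp2a2* (1.36%), *Top2a* (1.35%), *Irf7* (1.19%) and *Cnih2* (1.02%), and reads there cannot be assigned with certainty.

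Members, the 31 lists by function, the 5 by symbol and the genes named were chosen with earlier results of these data known. Named were the adhesion candidates and markers, the 12 top-ranked genes in each direction (mean of at least 5 CPM in a group, no overlap, no model names) and per list up to 4 called members in each direction or, with none called, the 2 at the highest level. A gene left out of its list is not reported here. Other list members are examples chosen after their values were seen. In a simulation of the myoblast-enriched comparison in which 200 of 14249 genes changed 4-fold, edgeR found 172 with 12 false calls. For the difference between the fractions it found 39 of 200. Genes were drawn independently with their estimated dispersion, with no shift common to a library and no library against its label. These figures therefore do not measure how reliable the calls in the real libraries are. Alternatives were DESeq2 1.42.0, RLE size factors, no low-count filter, all groups of the table in 1 fit, a replicate block, each library left out in turn, no fold threshold and, chosen after seeing the data, leaving out both myotube-enriched libraries numbered 2.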

Additional observations from a re-analysis of the deposited data

Results flagged for a closer look

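The dox effect differed between the myoblast-enriched fraction and the whole culture at 120 h by the interaction test for 337 genes with a higher and 367 with a lower effect in the fraction (edgeR, adjusted p under 0.05 and over 2-fold). Among the named genes, the signed log2 fold change was higher in the fraction than in the whole culture for *Gdf15* by 4.25, *Cdsn* by 3.29, *Gpr141* by 2.83, *Mapt* by 2.30, *Klf4* by 2.15, *Trib3* by 1.99, *Adgrg1* by 1.72, *Myod1* by 1.45, *Chrng* by 1.27, *Vldlr* by 1.26, *Myog* by 1.17 and *Cdkn1a* by 1.10. Of these, *Adgrg1* and *Mapt* rose in the fraction, and the others had negative values in both sets, lower in the whole culture. The signed value in the fraction was below that in the whole culture for *Cldn15* (difference -4.78), *Tnfsf11* (-3.86), *Gpr35* (-2.58), *Aspn* (-2.01), *Grem1* (-1.49), *Gdf11* (-1.16), *Ldha* (-1.03), *Ntn4* (-1.01) and *Vcam1* (-1.003). *Cldn15*, a claudin, had a log2 fold change of 4.48 in the whole culture and -0.30 in the fraction, and *Ldha*, a lactate dehydrogenase subunit, 0.50 and -0.53. The fractions were strained and the whole cultures were not, and their counts stand in separate deposited tables. The part of straining or of the table in these differences was not tested. No group has 4 libraries, so distance of a single library from its group was not tested.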

How the results depend on the processing

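In the myoblast-enriched fraction (172 genes up, 260 down), DESeq2 called 262 up and 462 down, the data without the low-count filter 365 and 591, and the replicate block 438 and 684, with RLE size factors at 176 and 269. Without the fold threshold 260 rose. All groups of the table in 1 fit called 1 and 0. With 1 library left out the counts ranged from 0 to 177 up and from 0 to 341 down, and the lowest adjusted p was 0.0540 without dox replicate 2 (1717 genes at an unadjusted p under 0.05) and 0.0579 without untreated replicate 3 (2098). Of the 67 named genes that were called, DESeq2, RLE and no filter kept 67, the block 65, all groups 0, and the 5 fits without a library 0, 8, 60, 65 and 0 in the order dox replicates 2 and 3 and untreated replicates 1 to 3. Replicate numbers were shared by 2 pairs only, and the study's design has condition as its only term, so they were not taken as pairs. Deviations from the group means correlated across genes at 0.433 for the libraries numbered 2 and 0.301 for those numbered 3. The deviations of 2 dox libraries mirror each other, so the values across numbers, -0.433 and -0.301, are no separate check. Whether the libraries are paired was not tested, and the block adds no evidence of its own.

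For genes called up earlier and in the fraction (83 at 0 h, 127 at 24 h, 137 at 48 h), the counts were 132, 221 and 255 without the filter, 141, 249 and 276 with the replicate block, 225, 231 and 244 without the fold threshold and 1 each with all groups in 1 fit, and 0 to 82, 0 to 120 and 0 to 132 with 1 library left out. For those called down (21, 72 and 194), they were 57, 134 and 391 without the filter, 55, 131 and 415 with the replicate block, 178, 196 and 319 without the fold threshold, 40, 116 and 320 with DESeq2 and 0 each with all groups in 1 fit, and 0 to 34, 0 to 92 and 0 to 243 with 1 library left out.

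For the difference from the whole culture (337 higher, 367 lower), no filter gave 624 and 652, no fold threshold 563 and 550, DESeq2 483 and 578, and the replicate block 291 and 308. With 1 library left out the counts were 164 to 669 and 116 to 609. They moved by over 1.5 times without these libraries: dox replicate 2 of the fraction (164, 116), its untreated replicates 2 (609 lower) and 3 (204, 193), and of the whole culture the dox replicates 1 (183, 211) and 3 (228 lower) and the untreated replicates 1 (195 higher), 2 (179, 205) and 3 (669 higher). The whole-culture counts (997 and 1199) ranged from 889 to 1017 and from 1019 to 1388 with 1 library left out, and were 1055 and 1275 with DESeq2 and 1031 and 1301 without the filter. In the myotube-enriched fraction DESeq2 called 1 up and 1 down and no filter 1 down, and for the difference between the fractions DESeq2 called 1 and 1 and all groups without both libraries numbered 2 called 1 up.

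The medians of 6 of the 36 lists changed sign under some alternative: 5 with the replicate block, 5 without dox replicate 2, 4 and 2 without untreated replicates 1 and 3, and 1 each without dox replicate 3, with DESeq2 and with all groups in 1 fit. With 1 library left out the median ran from -0.51 to 0.21 for DNA replication, -0.17 to 0.13 for muscle metabolism, -0.0890 to 0.16 for smooth muscle genes, -0.30 to 0.0273 for guidance, -0.27 to 0.0232 for cholesterol synthesis and -0.46 to 0.47 for adhesion proteins of the immunoglobulin type. The block gave 0.21, -0.18, 0.17, 0.0252, 0.0354 and -0.19 in the same order, and over all lists no median moved by more than 0.636. Signs also turned for these named genes, none of them called. With the replicate block *Dag1* had 0.0496, *Pcna* 0.0908 and *Srebf2* 0.0513. With 1 library left out the log2 fold change ran from -0.24 to 0.0184 for *Mymk*, -0.20 to 0.0899 for *Tpm2*, -0.29 to 0.0350 for *Chrna1*, -0.21 to 0.0779 for *Dag1*, -0.49 to 0.11 for *Pcna*, -0.24 to 0.0451 for *Ccnd3*, -0.28 to 0.0389 for *Srebf2*, -0.94 to 0.15 for *Pcdhgc3* and -0.17 to 1.02 for *Pcdhgc4*. The cause of these changes was not tested.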
